A study of Homo sapiens with 4 samples.

Results

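The SLC25 carriers are the transport proteins of the inner mitochondrial membrane. The genes described here are those whose name is SLC25A followed by a number, without SLC25A40, which lies in the 7q21 segment. They are 47 of the 26485 gene names in the tables, and 48 names matched before that gene was left out. SLC25A6 is listed on 2 rows in each library, and the rows of a name were summed.

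SW1736 and 8505C are established human cell lines from anaplastic thyroid carcinoma. Wild-type (wt) cells of each line received no drug. PTX cells came from the same line after 6 months in paclitaxel, a taxane that stabilizes microtubules, raised from 1 nM to 1.5 µM, and were kept in 1.5 µM of it. One mRNA library was sequenced for each of the 4 conditions, so the spread between cultures is unknown, no p-value is given and the 2 lines are not treated as replicates. Selection, the drug still present in the medium and time in culture cannot be told apart. Levels are FPKM, the fragments aligned to a gene, scaled to its length and the library's depth. Differences are log2 ratios of (FPKM + 0.1), a scale that understates the change of genes with a low FPKM. A gene was compared where it was above 0.5 FPKM in 1 or both libraries of a pair, and called where its log2 ratio was beyond 1.5 in either direction. In bulk RNA, fewer cells that express a gene and less RNA per cell cannot be told apart.

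The depth, worked out from coverage and FPKM, was between 43.5 and 57.9 M reads. One library went against its label in its lineage markers. PAX8, a thyroid transcription factor, stood at 38.2 FPKM in SW1736 wt and at 0.206, 0.123 and 0.146 in SW1736-PTX, 8505C wt and 8505C-PTX. Keratin KRT19 stood at 266 FPKM in SW1736 wt, at 0.535 in its PTX library and at 0 in both 8505C libraries, and NKX2-1, another thyroid factor, was at 0 in SW1736 wt and at 36.3, 30.5 and 39.0 in the other 3, in the same order. For these genes the library labelled SW1736-PTX had the pattern of the 8505C libraries. Its origin was not tested here. The methods state that SW1736 and 8505C were typed by short tandem repeats, and do not say so of the PTX cells. The values of SW1736-PTX are therefore also set against 8505C wt. This comparison was chosen after the data were seen and shares a library with each pair. Thyroglobulin (TG) reached at most 0.00586 FPKM, TSHR and SLC5A5 were at 0 in all 4 libraries, and markers of blood cells (PTPRC, CD3E) and endothelium (PECAM1, VWF) did not exceed 0.281. KRT8, KRT18 and VIM were at 257 FPKM or more in every library, and EPCAM and CDH1 at 0.0806 or less.

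Carriers of this family share a fold of repeated membrane helices and move nucleotides, phosphate, organic acids, amino acids, cofactors and iron between the cytosol and the matrix. The ADP/ATP carriers exchange ADP for ATP made by the ATP synthase, so that ATP reaches the cytosol. Of their isoforms, SLC25A4 is best known from heart and skeletal muscle, SLC25A5 from proliferating cells, SLC25A6 from most tissues and SLC25A31 from the male germ line. SLC25A6 lies in pseudoautosomal region 1, the stretch that the X and Y chromosomes share.

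The promoters of SLC25A4, SLC25A5 and SLC25A6 are shown because the balance of these isoforms of one transporter is the main comparison here. Each sequence is the 250 bases before the RefSeq start (GRCh38.p14), read along the gene: chr4:185143016-185143265 on the plus strand, chrX:119468194-119468443 on the plus strand and chrX:1392114-1392363 on the minus strand. Capitals mark the motifs found. Those searched, on both strands, were the CCAAT box (letters CCAAT), the TATA box (letters TATAAA), the core of ETS factor sites (letters CCGGAAG) and the core of NRF1 sites (letters GCGCATGC).
SLC25A4: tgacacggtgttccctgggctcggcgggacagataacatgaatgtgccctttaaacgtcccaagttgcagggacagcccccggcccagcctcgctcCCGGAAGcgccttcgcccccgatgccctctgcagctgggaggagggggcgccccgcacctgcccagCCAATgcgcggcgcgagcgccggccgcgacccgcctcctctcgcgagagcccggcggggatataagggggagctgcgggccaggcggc
SLC25A5: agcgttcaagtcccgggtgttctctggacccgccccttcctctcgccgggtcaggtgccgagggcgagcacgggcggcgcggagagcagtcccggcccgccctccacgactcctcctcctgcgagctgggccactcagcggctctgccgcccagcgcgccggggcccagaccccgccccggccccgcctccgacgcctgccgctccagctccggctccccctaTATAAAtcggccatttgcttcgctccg
SLC25A6: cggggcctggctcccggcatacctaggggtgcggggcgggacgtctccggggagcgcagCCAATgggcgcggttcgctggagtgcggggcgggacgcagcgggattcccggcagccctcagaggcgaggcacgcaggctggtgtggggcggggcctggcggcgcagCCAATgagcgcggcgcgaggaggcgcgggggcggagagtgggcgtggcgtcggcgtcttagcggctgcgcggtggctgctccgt
The SLC25A4 window holds 1 CCAAT box and 1 ETS core. The SLC25A5 window holds 1 TATA box and no CCAAT box, and the SLC25A6 window holds 2 CCAAT boxes and none of the other motifs. Of 27305 promoters of this length, 33.0% hold a CCAAT box, 11.1% a TATA box, 8.82% an ETS core and 2.81% an NRF1 core. A promoter entry was found for 39 of the 47 carriers, and 18 of these entries hold a CCAAT box (46.2%), 3 a TATA box (7.69%), 8 an ETS core (20.5%) and 0 an NRF1 core. A match is a description of the letters and not a bound site.

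In both pairs the PTX library held more SLC25A6 and less SLC25A5 mRNA than its wt library, so the ratio of SLC25A6 to SLC25A5 was higher. SLC25A6 (chrX:1386152-1392146, hg38, minus strand) stood at 469 FPKM in SW1736 wt and 1068 in its PTX library, and at 387 in 8505C wt and 907 in 8505C-PTX, all of it on the X chromosome row, since the Y row was at 0 in every library. Both PTX libraries were above both wt libraries, with log2 ratios of 1.19 in the SW1736 pair and 1.23 in the 8505C pair, short of the limit of 1.5. SLC25A5 (chrX:119468400-119471396, plus strand) stood at 503, 154, 258 and 135 FPKM in that order, and both PTX libraries lay below both wt libraries. SLC25A5 fell in the SW1736 pair (log2 ratio -1.71) and had a log2 ratio of -0.93 in the 8505C pair. Between the wt libraries, 8505C held less SLC25A5 than SW1736 (log2 ratio -0.96), a difference of about the size of that within the 8505C pair.

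SLC25A4 (chr4:185143263-185150384, plus strand) was far lower, at 5.27, 8.17, 5.78 and 7.83 FPKM, with log2 ratios of 0.62 and 0.43. Both PTX libraries were above both wt libraries for this gene too. The share of all names with such a separation is not known, here and for the carriers below. Of all names compared in both pairs, 70.3% had the same sign in both. SLC25A31 was listed at 0 in all 4 libraries. Over the whole tables SLC25A6 ranked between 68 and 151 among the gene names by FPKM, SLC25A5 between 123 and 438, and SLC25A4 between 6913 and 8283.

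The ratio of SLC25A6 to SLC25A5 was 0.933 in SW1736 wt against 6.94 in SW1736-PTX, and 1.498 in 8505C wt against 6.71 in 8505C-PTX. It was thus 7.44-fold higher with PTX in SW1736 and 4.48-fold higher in 8505C, and 4.63-fold higher in SW1736-PTX than in 8505C wt. SLC25A6 made up 48.0% and 59.4% of the summed FPKM of the 3 expressed ADP/ATP carriers in SW1736 wt and 8505C wt, and 86.8% and 86.4% in SW1736-PTX and 8505C-PTX. SLC25A5 held 51.5% and 39.7% in the wt libraries and 12.5% and 12.9% in the PTX libraries, and SLC25A4 stayed under 1% in all 4. The isoform split was nearly the same in the PTX libraries and differed between the wt libraries.

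**Figure D1:**
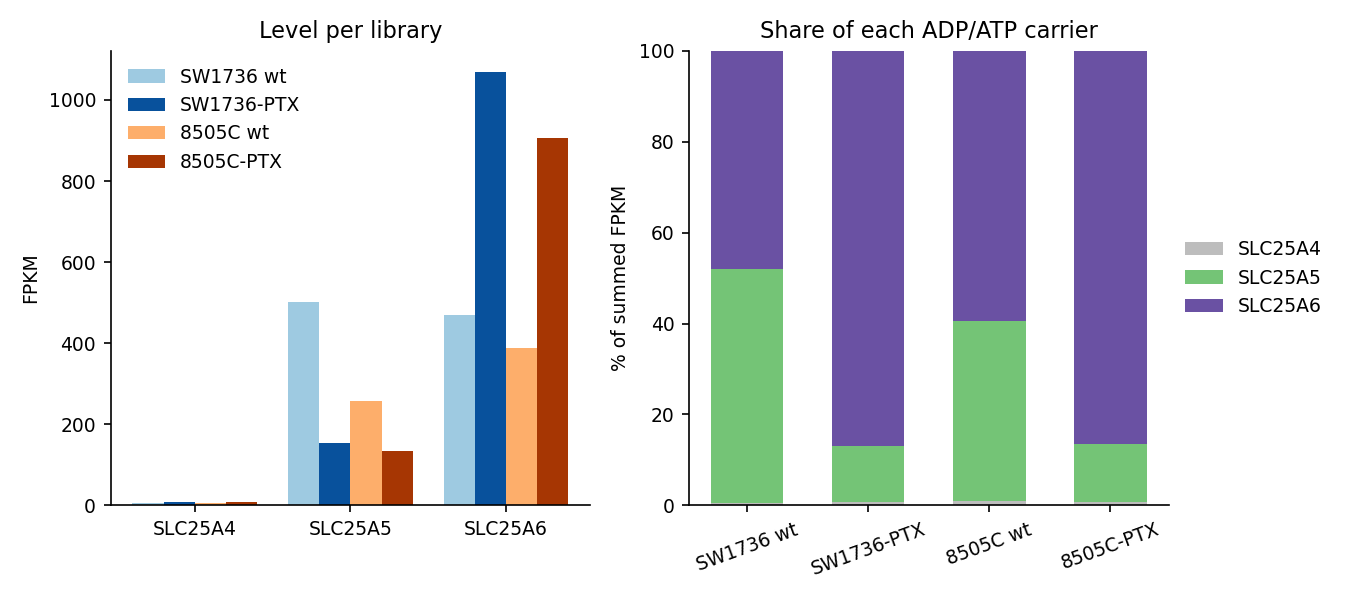
Levels of SLC25A4, SLC25A5 and SLC25A6 in each library (left, FPKM, 1 bar per library, no replicates) and the percent of their summed FPKM that each gene holds (right). SLC25A6 takes 86.8% and 86.4% of the sum in the PTX libraries, against 48.0% and 59.4% in the wt libraries.

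The sum of the 3 genes differed less between wt and PTX than SLC25A5 or SLC25A6 did on the log2 scale within each labelled pair. It was 977 FPKM in SW1736 wt against 1230.1 in SW1736-PTX, and 651 in 8505C wt against 1050 in 8505C-PTX, which is 1.26-fold higher with PTX in SW1736 and 1.61-fold higher in 8505C. For SW1736-PTX against 8505C wt the sum was 1.89-fold higher, a log2 ratio of 0.92 beside -0.75 for SLC25A5, so it differed more than SLC25A5 there. In SW1736 the 599 FPKM more of SLC25A6 stood against a change of -349 FPKM in SLC25A5, and in 8505C 520 FPKM more of SLC25A6 stood against a change of -123 in SLC25A5. Between the wt libraries the sum was 0.667 times as high in 8505C as in SW1736. These 3 genes held 55.0%, 62.7%, 45.3% and 58.1% of the FPKM of all SLC25 carriers, in the order SW1736 wt, SW1736-PTX, 8505C wt and 8505C-PTX. The other carriers together came to 801, 732, 785 and 759 FPKM, a narrow range.

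Read depth was not the limit for these genes. With reads estimated from FPKM and transcript length, the exact binomial 95% interval of the log2 ratio, which covers counting error only, ran from 1.17 to 1.21 for SLC25A6 in SW1736 and from 1.21 to 1.25 in 8505C. It ran from -1.74 to -1.68 and from -0.97 to -0.90 for SLC25A5, and from 0.53 to 0.74 and from 0.33 to 0.55 for SLC25A4. Of the 75-base windows of the SLC25A5 transcript, 7 of 1233 (0.57%) occur elsewhere in hg38, and none of SLC25A4 or SLC25A6 does when the Y copy of SLC25A6 is counted as its own. No such window is shared among the 3 isoforms. SLC25A5 overlaps SLC25A5-AS1, and reads of both cannot be told apart if the counting ignored strand, which the sources used here do not state. Set against 8505C wt, SW1736-PTX had log2 ratios of 1.46 for SLC25A6, -0.75 for SLC25A5 and 0.49 for SLC25A4, with the same directions, and SLC25A5 was then not called.

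Across the family, 39 of the 47 carriers passed 0.5 FPKM in at least 1 library, 35 in all 4, and 14 were above 10 FPKM in all 4. SLC25A2, SLC25A18, SLC25A34, SLC25A41 and SLC25A53 stayed under 0.5 FPKM, and SLC25A31, SLC25A47 and SLC25A48 were at 0 everywhere. The highest mean levels were those of SLC25A6, SLC25A5, SLC25A3, SLC25A39 and SLC25A1. SLC25A3, the phosphate carrier that supplies the ATP synthase, was at 264, 224, 250.0 and 231 FPKM, in the order SW1736 wt, SW1736-PTX, 8505C wt and 8505C-PTX, which is kept below. SLC25A39, which carries glutathione, was at 108, 86.2, 102 and 98.4 FPKM. Neither gene was called, with log2 ratios of -0.24 and -0.11 for SLC25A3 and -0.33 and -0.05 for SLC25A39.

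**Figure D2:**
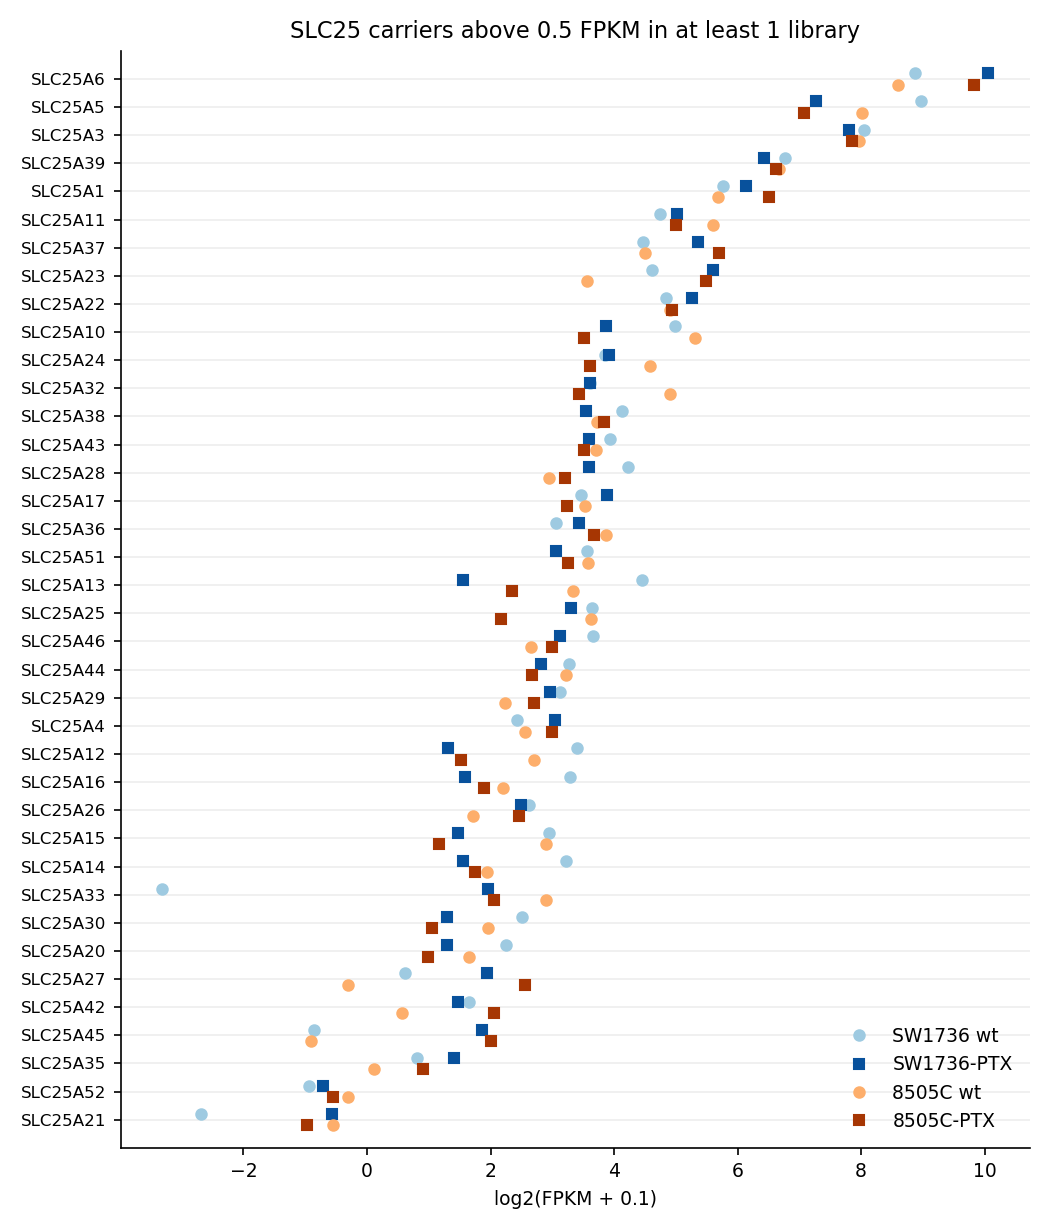
Level of 38 of the 39 carriers above 0.5 FPKM in at least 1 library, as log2(FPKM + 0.1), ordered by mean FPKM, with 1 point per library (circles wt, squares PTX). SLC25A6 and SLC25A5 lie at the top with wt and PTX points apart in opposite directions, and SLC25A33 stands alone at the left in SW1736 wt, where it is listed at 0.

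In the SW1736 pair 3 of 39 carriers compared rose (SLC25A33, SLC25A45, SLC25A21) and 5 fell (SLC25A5, SLC25A12, SLC25A13, SLC25A14, SLC25A16), where 15.7% of all gene names compared rose and 10.2% fell. In the 8505C pair 3 of 39 rose (SLC25A23, SLC25A27, SLC25A45) and 3 fell (SLC25A10 and SLC25A15 among them), against 15.0% and 5.89% of all names. The carriers' share of rises was below that of all names in both pairs, and the counts of falls are near it. The median log2 ratio of the carriers was -0.16 in SW1736 and -0.20 in 8505C, beside 0.01 and 0.11 over all names. With SW1736-PTX set against 8505C wt, 3 carriers rose (SLC25A23, SLC25A27, SLC25A45) and 2 fell (SLC25A13 among them), against 15.1% and 5.23% of all names.

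Beyond a log2 ratio of 1, 5 carriers were up and 8 down in SW1736, where 22.1% and 18.2% of all names were, and 6 were up and 6 down in 8505C, against 22.5% and 12.9%. In both pairs at once, SLC25A6, SLC25A27 and SLC25A45 were up and SLC25A10, SLC25A12 and SLC25A15 were down by this limit, 3 of 39 in each direction, against 11.9% and 6.25% of all names. Beyond 1.5 in both pairs, 1 carrier was up (SLC25A45) and 0 were down, against 7.37% and 2.41% of all names, and 24 of 39 had the same sign in both, against 70.3% of all names.

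**Figure D3:**
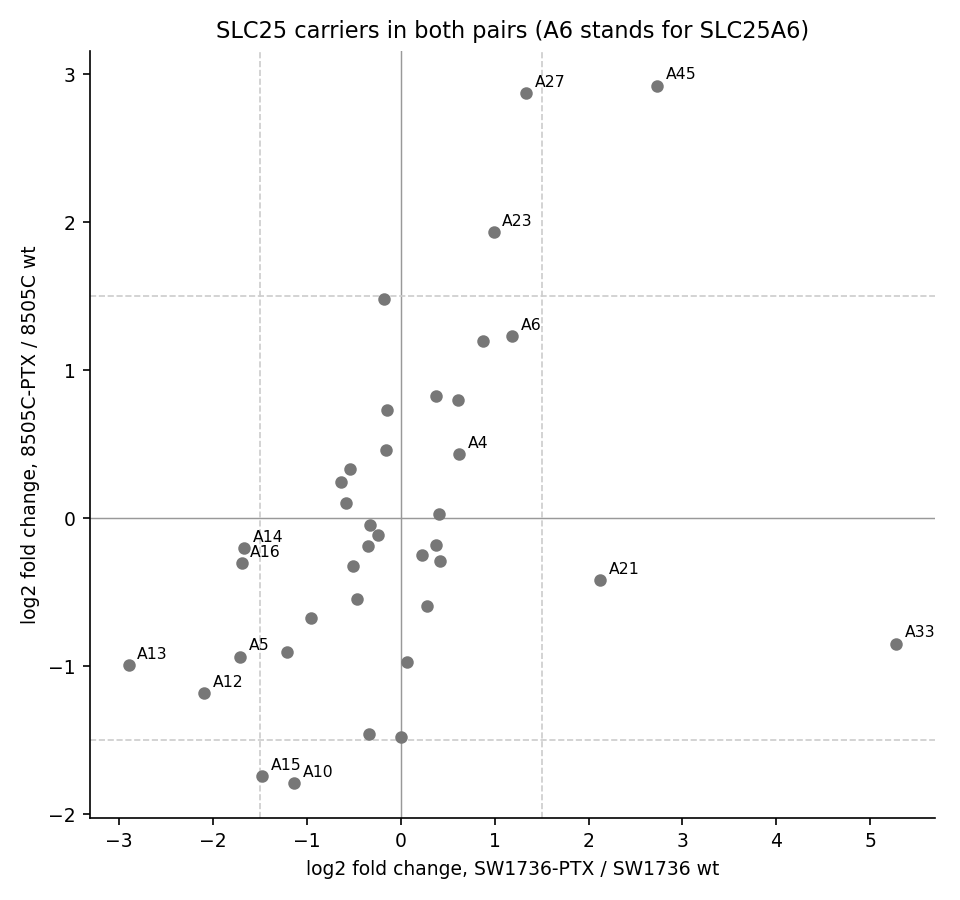
Log2 ratio of PTX to wt in the 8505C pair (vertical) against that in the SW1736 pair (horizontal) for 38 of the 39 carriers compared, 1 point per gene, with dashed lines at 1.5 and -1.5. SLC25A45 is beyond the upper line in both pairs, and SLC25A33 and SLC25A21 lie at opposite signs.

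SLC25A45, described as a carrier of methylated basic amino acids, rose in both labelled pairs. It was at 0.449, 3.55, 0.432 and 3.93 FPKM, so both wt libraries were under 0.5 FPKM and both PTX libraries well above. The log2 ratios were 2.73 and 2.92, and 2.78 for SW1736-PTX against 8505C wt. SLC25A27, an uncoupling-protein-like carrier known best from the brain, was at 1.42, 3.76, 0.706 and 5.80 FPKM, with a log2 ratio of 1.34 in SW1736 and a rise of 2.87 in 8505C. The other carriers of that kind had ratios below 0. SLC25A14 was at 9.21, 2.84, 3.75 and 3.24 FPKM and fell in SW1736 (-1.66), where SW1736 wt stood above the other 3 libraries, with -0.20 in 8505C. SLC25A30 was at 5.57, 2.35, 3.80 and 1.98 FPKM, with log2 ratios of -1.21 and -0.90.

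The aspartate/glutamate carriers, which serve the malate-aspartate shuttle, had the lowest ratios of the SW1736 pair. SLC25A13, the isoform known from liver and the urea cycle, was at 21.7, 2.83, 10.00 and 4.97 FPKM. Both PTX libraries lay below both wt libraries, with a fall in SW1736 (-2.89), -0.99 in 8505C and -1.78 for SW1736-PTX against 8505C wt. SLC25A12, the isoform of brain and muscle, was at 10.4, 2.37, 6.43 and 2.78 FPKM. It fell in SW1736 (-2.09) and had -1.18 in 8505C, again with the PTX libraries below both wt libraries, and -1.40 for SW1736-PTX against 8505C wt. The oxoglutarate carrier SLC25A11, the other side of that shuttle, was at 26.6, 32.4, 48.2 and 32.0 FPKM, and the glutamate carrier SLC25A22 at 28.7, 38.2, 29.8 and 30.5. Neither was called. Of the 4 carriers compared in this group, 0 rose and 2 fell in SW1736, and 0 were called in 8505C. Of all names, 15.7% rose and 10.2% fell in SW1736, and 15.0% rose and 5.89% fell in 8505C.

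SLC25A10, the dicarboxylate carrier that exchanges malate or succinate for phosphate, was at 31.7, 14.5, 39.5 and 11.4 FPKM. It had a log2 ratio of -1.13 in SW1736 and fell in 8505C (-1.79), and both PTX libraries lay below both wt libraries. The citrate carrier SLC25A1, which exports citrate used for lipid synthesis, was at 54.5, 70.6, 51.1 and 90.5 FPKM, with 0.37 and 0.82. SLC25A21, the oxodicarboxylate carrier, was near the limit of comparison, at 0.0550, 0.577, 0.582 and 0.410 FPKM. Its rise in SW1736 (2.13) rests on SW1736 wt, with about 10 estimated reads, as its value for SW1736-PTX against 8505C wt was -0.01.

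SLC25A23, a calcium-dependent ATP-Mg/phosphate carrier, was at 24.4, 48.7, 11.6 and 44.8 FPKM. It rose in 8505C (1.94), had 0.99 in SW1736 and 2.05 for SW1736-PTX against 8505C wt. Of its 75-base windows, 13.3% occur elsewhere in hg38, in 1 other stretch of 20 kb. The related SLC25A24, at 14.3, 15.0, 23.8 and 12.1 FPKM, and SLC25A25, at 12.4, 9.77, 12.3 and 4.41, had ratios below 0 in 8505C (-0.97 and -1.46), short of the limit, so the calcium-dependent carriers did not share a direction there.

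The ornithine carrier SLC25A15, part of the urea cycle, was at 7.58, 2.67, 7.39 and 2.14 FPKM. Both PTX libraries were below both wt libraries, with -1.47 in SW1736 and a fall in 8505C (-1.74). The other amino acid and carnitine carriers compared were SLC25A38 (glycine), SLC25A44 (branched-chain amino acids), SLC25A29 (basic amino acids) and SLC25A20 (acylcarnitines). In SW1736 all 5 of the group were below 0 (median -0.58), and in 8505C 3 of 5 were (median -0.55). Among all carriers compared, 21 of 39 were below 0 in SW1736 and 24 of 39 in 8505C. Of all names, 50.3% and 54.3% were above 0. The 1 call in the group was the fall of SLC25A15 in 8505C, where 5.89% of all names fell.

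Among the 9 carriers of cofactors and glutathione, SLC25A16, linked to coenzyme A, fell in SW1736 (-1.69), at 9.61, 2.91, 4.48 and 3.62 FPKM, with -0.30 in 8505C. SLC25A32, which carries folate and FAD, was higher in 8505C wt than in the other 3 libraries, at 12.1, 12.1, 30.0 and 10.7 FPKM, with 0.01 and -1.48, just inside the limit. SLC25A42 (coenzyme A), at 3.05, 2.68, 1.38 and 4.05 FPKM, had -0.18 and 1.48. SLC25A32 overlaps DCAF13, so reads there are uncertain.

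The mitoferrins bring iron into mitochondria. SLC25A37 was at 22.1, 40.7, 22.5 and 51.9 FPKM, with both PTX libraries above both wt libraries and log2 ratios of 0.88 and 1.20, and SLC25A28 at 18.7, 12.0, 7.64 and 9.10, with -0.64 and 0.25. Neither was called. Of the pyrimidine nucleotide carriers, SLC25A36 was at 8.22, 10.7, 14.4 and 12.7 FPKM. SLC25A33 was listed at 0 in SW1736 wt, where 3 reads on its MANE transcript, which reaches beyond the deposited locus, would be 0.0159 FPKM, and at 3.77, 7.35 and 4.04 in SW1736-PTX, 8505C wt and 8505C-PTX. The size of its ratio in SW1736 therefore depends on the pseudocount, and an exact 0 in such a table can be a failed estimate. Its log2 ratio was -0.85 in 8505C and -0.95 for SW1736-PTX against 8505C wt.

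**Figure D4:**
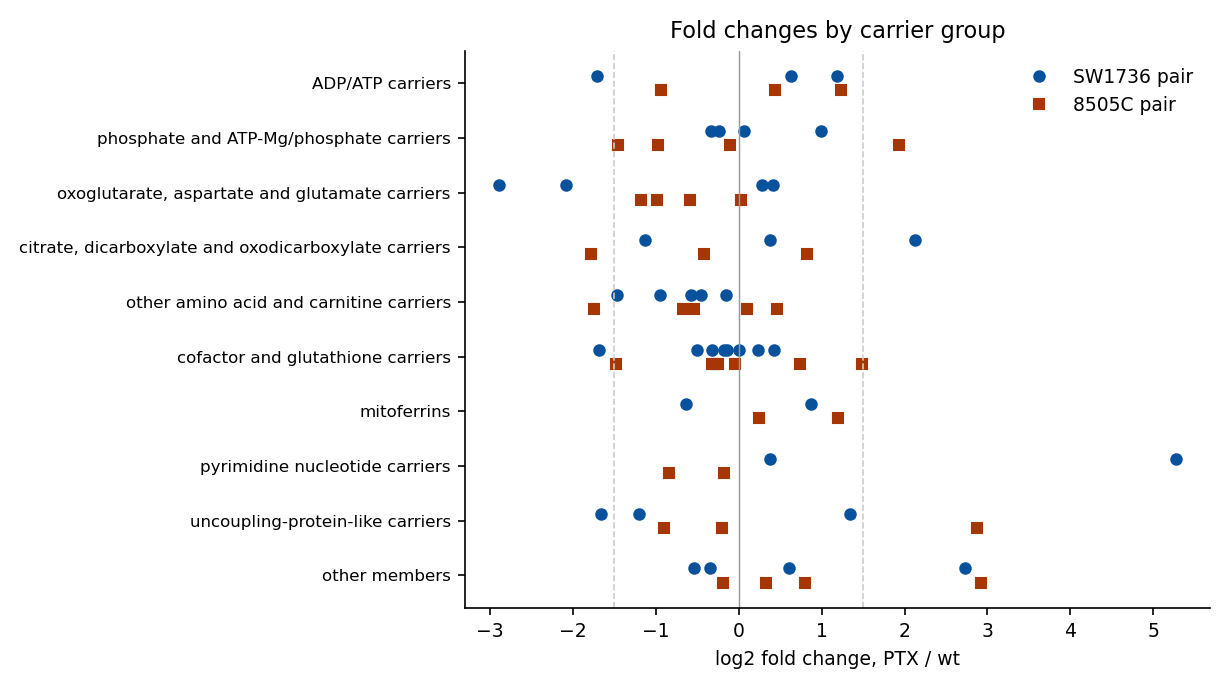
Log2 ratio of PTX to wt of 38 of the 39 carriers compared, by group of substrates, with 1 point per gene (circles SW1736 pair, squares 8505C pair) and dashed lines at 1.5 and -1.5. Of the amino acid and carnitine carriers, all 5 are below 0 in SW1736 (median -0.58), where 21 of the 39 carriers compared are.

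The PTX libraries of the lines were closer to each other than any other libraries were over these genes. Between them 0 of 39 carriers were called in either direction, where 3.70% of all names were higher in 8505C-PTX and 4.09% lower. Of the 39, 34 (87.2%) lay within 0.5 of each other on the log2 scale, against 64.9% of all names. Between the wt libraries 15 of 38 did (39.5%, against 45.9% of all names), and 3, SLC25A33 and SLC25A21 among them, were higher in 8505C wt beyond 1.5, with 0 lower, where 7.73% and 9.92% of all names were called. The median absolute log2 difference of the carriers was 0.236 between the PTX libraries and between 0.579 and 0.733 for every other pair of libraries. Over all names it was 0.325 between the PTX libraries and between 0.558 and 0.834 for the others. The closeness is thus not particular to the carriers. The part of the lineage markers of the library labelled SW1736-PTX in this closeness was not tested.

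**Figure D5:**
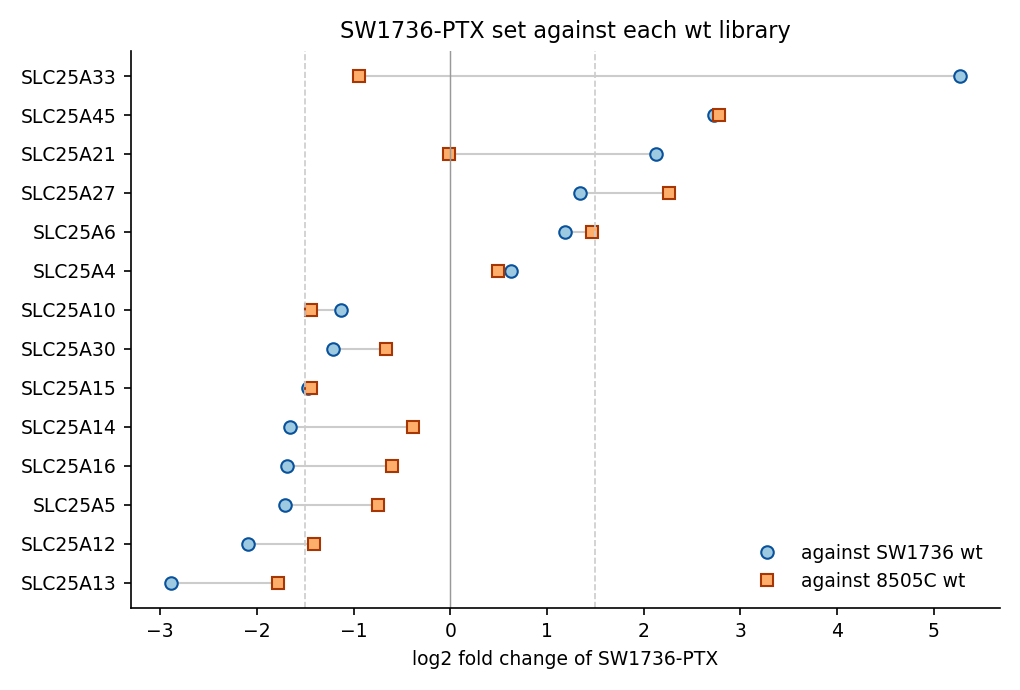
Log2 ratio of SW1736-PTX against SW1736 wt (circles) and against 8505C wt (squares) for the ADP/ATP carriers and other carriers with large ratios in SW1736, with dashed lines at 1.5 and -1.5. SLC25A33 and SLC25A21 lose their rise against 8505C wt (-0.95 and -0.01), and SLC25A45 and SLC25A13 keep their call.

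Partner genes of the ADP/ATP carriers were counted from lists. PPIF, the cyclophilin D that regulates the permeability transition pore, was at 132, 9.19, 65.5 and 14.8 FPKM and fell in both pairs (-3.83 and -2.14). Of the gene names that begin with ATP5, taken here for the ATP synthase, 19 were compared in SW1736. Of these 0 were up and 3 down (ATP5J2, ATP5J and the readthrough ATP5J2-PTCD1, median of the list -0.63). In 8505C 18 were compared, with 0 up and 1 down (ATP5J2, median -0.28). Of all names, 10.2% fell in SW1736 and 5.89% in 8505C. Chosen by its letters, the list also holds ATP5EP2, ATP5S and ATP5SL, and the readthrough shares the locus of ATP5J2. ATP5J2 was at 481, 83.2, 257 and 85.8 FPKM (-2.53 and -1.58). Of the 3 voltage-dependent anion channels of the outer membrane, 0 were called in SW1736, and VDAC3 fell in 8505C (-1.72), at 57.8, 28.7, 96.7 and 29.3 FPKM. The 2 subunits of the pyruvate carrier and the 3 carriers of this family with other names that were compared (UCP2, MTCH1, MTCH2) were not called, and 0 of 3 mitochondrial creatine kinases were expressed enough to compare.

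Of 8 genes for the import of carriers into the inner membrane, TIMM8A fell in both pairs (-2.14 and -1.63) and TIMM10 fell in 8505C (-1.60, with -1.44 in SW1736). Both proteins are small chaperones of the intermembrane space. Of all names, 10.2% fell in SW1736 and 5.89% in 8505C. The median of the 8 genes was 0.08 in SW1736, with 5 above 0, and -0.51 in 8505C, with 2 above 0. Of 7 regulators of mitochondrial biogenesis, the coactivator PPARGC1A rose in both pairs, from 0 to 0.656 FPKM and from 0.0645 to 1.04. TFAM, which packages mitochondrial DNA, fell in SW1736 (-1.79, with -1.23 in 8505C), and PPARGC1B fell in 8505C (-1.75, with -0.50 in SW1736). In each pair 1 of the 7 regulators rose and 1 fell, where 15.7% and 15.0% of all names rose.

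SLC25A6 has neighbours in pseudoautosomal region 1, and these were counted too. In SW1736 11 were compared, with 3 up, 0 down and a median of 0.25, and in 8505C 12, with 4 up, 0 down and a median of 0.82, where 15.7% and 15.0% of all names rose. CD99, a cell surface protein, was at 160, 438, 201 and 345 FPKM (1.45 and 0.78), ASMTL at 25.3, 42.8, 13.3 and 44.8 (0.75 and 1.75), and AKAP17A at 28.8, 24.9, 16.4 and 23.0 (-0.21 and 0.48). GTPBP6 was at 48.6, 17.4, 16.2 and 20.3 FPKM (-1.48 and 0.32). PLCXD1 was at 3.40, 1.58, 1.56 and 1.71 (-1.05 and 0.12). SW1736 wt stood above the other libraries for both genes. In SW1736 7 neighbours were above 0 and 4 below, where 50.3% of all names were above. In 8505C 11 were above 0 and 1 below, against 54.3%. For SW1736-PTX against 8505C wt all 11 compared were above 0, against 54.1%. The calls in SW1736 were SHOX (5.97), CRLF2 (3.34) and CSF2RA (5.30), each listed at 0 in SW1736 wt. Those in 8505C were SHOX (6.84), CRLF2 (4.86), IL3RA (4.18) and ASMTL. The part of the region in the level of SLC25A6 was not tested.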

How the data were processed

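The mRNA of SW1736 and 8505C wt and PTX cells was measured by single-end sequencing of 75 bp reads, with 1 library per condition, and groups were taken from the sample labels. According to the methods, the authors trimmed reads with Cutadapt and ERNE, used STAR to align them to hg38 and StringTie to quantify genes, and the submitters' processing notes name bcl2fastq 2.20. The annotation and the versions of ERNE, STAR and StringTie are not given in the sources used here. The deposited coverage is the mean read depth per base, a signal the authors did not normalize. The deposited FPKM is scaled to length and aligned fragments. The deposited TPM is the same measure with 1 common total for all libraries. No read counts were used, so no count model was fitted.

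FPKM of rows with one gene name were summed, 0.1 was added and log2 ratios were taken over all names above 0.5 FPKM in at least 1 library of a pair. Ratios beyond 1.5 were called. Depth came from the ratio of coverage to FPKM. Reads per gene were estimated on the MANE transcript of GENCODE 44 where it lies inside the deposited locus, for exact binomial 95% intervals. Floors of 3 reads used the MANE transcript of every carrier. Both cover counting error only. Transcript windows of 75 bases were searched in hg38, and promoters came from RefSeq (GRCh38.p14).

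Carriers and lists were chosen with earlier results of these data known, and the grouping by substrate is background knowledge written after the files were seen. Genes were named by rule: the ADP/ATP carriers, every carrier called in a pair or beyond 1 in both, the 5 highest, up to 4 per group, those above 0.5 FPKM in only 1 library of a pair, and those at 0. Some genes that enter the counts are not reported here. SLC25A32, SLC25A42, SLC25A25 and the carriers with low levels named beside them were also given where they lay near the limit or the floor. Alternatives were a pseudocount of 1 or 0.01, TPM, centring, the highest row, other minimums and limits, and, chosen after seeing the data, 8505C wt as reference of SW1736-PTX. Calls were also run on simulated libraries with counting error only and planted changes well beyond the limit. That checks the calculation, and cannot speak to the spread between cultures or to genes near the limit. Python 3.11.15, NumPy 2.4.6, pandas 2.3.3, SciPy 1.17.1 and matplotlib 3.10.9 were used.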

Additional observations from a re-analysis of the deposited data

Results flagged for a closer look

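SLC25A33 and SLC25A21 had log2 ratios of opposite sign in the pairs, with a call in 1 of them. SLC25A33 had 5.27 in SW1736, a value set by the pseudocount since the gene is listed at 0 in SW1736 wt, and -0.85 in 8505C. SLC25A21 had 2.13 in SW1736 and -0.42 in 8505C, with levels at or below 0.582 FPKM throughout. The difference between the pairs was not tested for either gene, since each condition has 1 library. In both cases SW1736 wt stood apart from the other 3 libraries.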

How the results depend on the processing

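Of 70 recomputed values, 50 planned and 1 added later stayed within the spread allowed. The calls in SW1736 (8) became 5 with a pseudocount of 1, 5 with 0.5 FPKM required in both libraries, 13 beyond 1, 5 beyond 2 and 5 against 8505C wt, and those in 8505C (6) became 12 beyond 1 and 2 beyond 2. Smaller shifts of these counts fell within the spread allowed. In SW1736 there were 9 calls with a pseudocount of 0.01 or TPM, and 7 with a minimum of 1 FPKM. In 8505C there were 4 with a pseudocount of 1 and 7 with 0.01. There were 8 with TPM or centring there, and 5 with 0.5 FPKM required in both libraries. On the TPM scale, log2 ratios were -1.76 (SLC25A5), 1.14 (SLC25A6) and 0.28 (sum of the 3 ADP/ATP carriers) in SW1736, and -0.97, 1.19 and 0.65 in 8505C. Centring on all names gave -1.04 for SLC25A5 and 1.12 for SLC25A6 in 8505C. Against 8505C wt, SW1736-PTX had 0.49 (SLC25A4), -0.75 (SLC25A5), 1.46 (SLC25A6) and 0.92 (sum). Centring takes off the median of all names, 0.11 in 8505C, TPM rescales each whole library, and the last values use another reference. No direction of SLC25A4, SLC25A5 or SLC25A6 turned under the alternatives run for them, nor that of their sum on the TPM scale or against 8505C wt. No paired test was run because each condition has 1 library, and a fit with the lines as blocks was not run. Depth limits SLC25A21 and the lowest of the 8 carriers under 0.5 FPKM, all of which the minimum kept out of the comparison. SLC25A41, 1 of the 8, was at 0 in both wt libraries. Its log2 ratios were 2.49 in SW1736 and 2.04 in 8505C, on about 41 and 26 estimated reads in the PTX libraries. The missing spread between cultures limits every value.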
